A study of Homo sapiens with 9 samples.

Results

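Sialyltransferases and fucosyltransferases are the enzymes that place sialic acid or fucose on the sugar chains of glycoproteins and glycolipids. By name, 33 genes of the ST3GAL, ST6GAL, ST6GALNAC, ST8SIA, FUT and POFUT families were chosen, and 32 of them were measured among the 19775 genes of the array. They comprised 19 sialyltransferases and 13 fucosyltransferases with 87 probe sets in all. Among the probe sets annotated to a single gene, the brightest over the 9 arrays stood for that gene. ST8SIA6 was not analysed here. The levels below are log2 intensities of single probe sets, so a level was compared between groups but never between genes.

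The cells were MDA-MB435S, an established metastatic melanoma line, carrying an empty vector (EV), wild-type WWOX, or WWOX with the WFPA mutation, which is known to break the binding of WWOX to its partner proteins. Each group had 3 Affymetrix U133 Plus 2.0 arrays of total RNA. The cells were stable clones made with the lentiviral vector pDEST12.2 and selected in G418, so that a difference between clones cannot be told apart from a difference between constructs. Whether the 3 RNA samples of a group were grown separately is not stated, and p-values then measure the spread between these arrays, which may be technical. The titles of the EV arrays, which add wox+, disagree with their vector field, where wild-type WWOX is entered, and the titles of the WWOX arrays disagree with a field that reads none. The titles were followed. The comparisons addressed which members differed in WWOX cells from EV and WFPA cells, and which differed already between WFPA and EV cells.

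These enzymes act mainly in the Golgi, where each adds its sugar in a set linkage to a set acceptor. The ST3GAL and ST6GAL enzymes cap galactose at the ends of glycan branches, the ST6GALNAC enzymes add sialic acid to N-acetylgalactosamine in O-glycans and gangliosides, and the ST8SIA enzymes add sialic acid to another sialic acid, which yields the ganglioside GD3 and polysialic acid. Fucosyltransferases build the H and Lewis structures and the core fucose of N-glycans, and the POFUT enzymes fucosylate proteins directly in the endoplasmic reticulum. GD3 is a well known ganglioside of melanoma cells, and sialylated and fucosylated Lewis structures are ligands of selectins.

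The array medians lay between 6.03 and 6.05, and their lower quartiles between 4.23 and 4.34. Without a stated background level, folds that start or end below the lower quartile are of uncertain size. The WWOX probe set used here had a mean level of 8.94 ± 0.284 (SD, n = 3) in EV cells, 10.24 ± 0.118 in WFPA cells and 10.66 ± 0.276 in WWOX cells, and was higher than in EV cells by 1.72 in WWOX cells (limma adjusted p = 0.000295) and by 1.30 in WFPA cells (limma adjusted p = 0.00285). A second WWOX probe set was also higher than in EV cells, by 3.68 in WWOX cells and by 3.14 in WFPA cells (limma adjusted p = 3.45e-06 and 2.42e-05). The levels of these 2 ran with the array titles and not with the vector field. The 3 other WWOX probe sets were not called, and for 1 of them WFPA minus EV was -0.73 (limma adjusted p = 0.0433). Of the melanocytic markers, 8 of 10 were measured. Over these 8, the mean level per array ran from 5.94 to 6.0 in EV cells, from 6.05 to 6.13 in WFPA cells and from 7.92 to 8.14 in WWOX cells. MITF, SOX10, S100B and MIA were called higher in WWOX cells, PMEL, MLANA, TYR and TYRP1 were not called, and TYRP1 lay under the lower quartile in all groups. The mean level of 4 leukocyte markers ran from 6.05 to 6.12 in EV cells, from 5.50 to 5.63 in WFPA cells and from 4.87 to 5.23 in WWOX cells. Of these, PTPRC was called lower in WWOX cells, and CD3E, CD14 and ITGAM were not called, with differences of 0.04, 0.10 and 0.06 from the EV and WFPA mean. The mean level of 6 fibroblast markers ran from 4.95 to 5.14, from 5.26 to 5.32 and from 6.04 to 6.16 in EV, WFPA and WWOX cells, with COL1A2 and LUM higher against the EV and WFPA mean, and that of 6 epithelial markers ran from 7.08 to 7.30, from 7.64 to 7.72 and from 6.71 to 6.78. KRT8 and KRT18 were lower in WWOX cells than in both other groups, whereas CDH1 was lower than in WFPA cells and not called against EV cells (-0.12, limma adjusted p = 0.696). None of 5 endothelial markers was called. The part of these markers in the differences below was not tested.

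A member was called where the limma adjusted p, taken over all 54613 probe sets, was under 0.05 and the difference reached 2-fold. Against the mean of EV and WFPA cells, 6 members were called higher in WWOX cells, where the background over all genes was 1.94%, and 2 lower, where it was 2.06%. Those higher were ST3GAL4, ST3GAL6, ST6GAL1, ST6GALNAC2, ST8SIA1 and ST8SIA4, all of them sialyltransferases, with log2 differences from 1.35 (ST3GAL6) to 2.99 (ST6GALNAC2). Those lower were the sialyltransferase ST6GALNAC3 (-1.87) and the fucosyltransferase FUT1 (-1.65). The median log2 difference of the 32 members was 0.10, beside 0.04 over all genes, and their median absolute difference was 0.20, beside 0.18. In a bulk culture, a change in the share of cells that express a gene and a change in RNA per cell cannot be told apart.

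Against EV cells alone, 6 members were called higher in WWOX cells (background 2.11%) and 2 lower (background 1.79%). The higher ones were again ST3GAL4, ST3GAL6, ST6GAL1, ST6GALNAC2, ST8SIA1 and ST8SIA4, and the lower ones were ST6GALNAC3 and FUT8. Against WFPA cells, 5 members were called higher in WWOX cells (background 2.01%), namely ST3GAL4, ST3GAL6, ST6GAL1, ST6GALNAC2 and ST8SIA1, and only FUT1 was called lower (background 2.72%). Between WFPA and EV cells, ST8SIA1 and FUT1 were called higher in WFPA cells (2 members, background 1.54%) and ST6GALNAC3 lower (1 member, background 0.693%). These comparisons share arrays, since each group enters more than 1 of them, and they are not independent of each other. Over the 19 sialyltransferases the median difference from EV cells was 0.27 and that from WFPA cells 0.07, and over the 13 fucosyltransferases these medians were 0.05 and 0.11. Over all genes the same medians were 0.03 and 0.07.

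**Figure D1:**
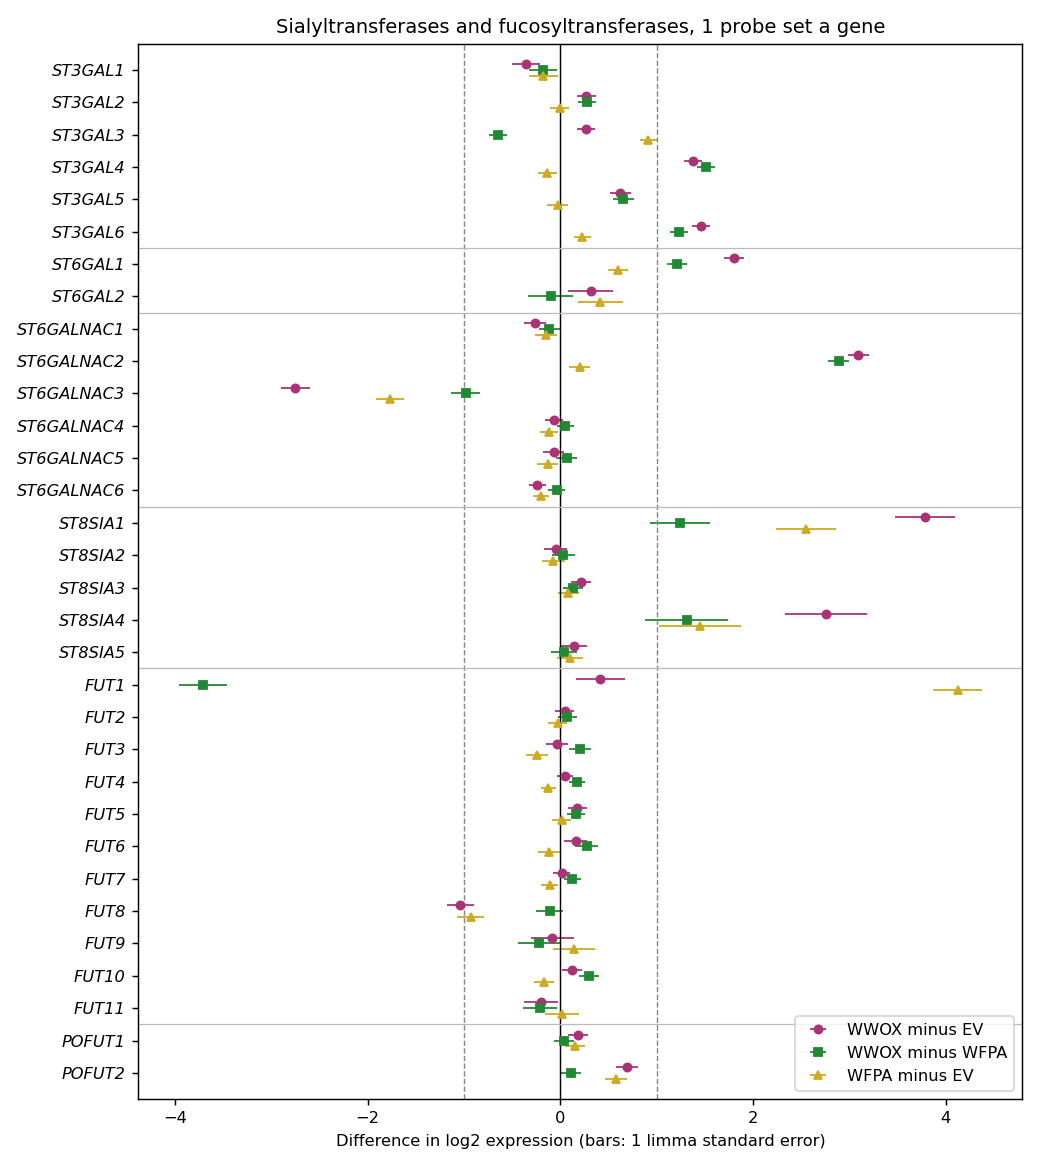
Difference in log2 expression of the 32 measured members for WWOX minus EV cells, WWOX minus WFPA cells and WFPA minus EV cells, with bars of 1 limma standard error, dashed lines at 2-fold and grey lines between families. The points beyond the right dashed line belong to ST3GAL4, ST3GAL6, ST6GAL1, ST6GALNAC2, ST8SIA1, ST8SIA4 and FUT1, while the 10 sialyltransferases and 10 fucosyltransferases that passed no adjusted p lie near 0.

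As examples of called members with and without a motif match described below, 3 promoters are given from RefSeq (GRCh38.p14), each from 250 bases before to 50 bases after the start of the gene, 5′ to 3′ on the strand of the gene. ST3GAL4 and ST6GALNAC3 are shown for their match, and ST8SIA1 as a member without one. ST3GAL4 and ST8SIA1 were higher in WWOX cells in each comparison, and ST6GALNAC3 was lower than in EV cells. Capitals mark an E-box, the motif class that MITF can bind, and ST8SIA1 holds none. The promoters lie on the plus strand at chr11:126355762-126356061 (ST3GAL4), on the minus strand at chr12:22334658-22334957 (ST8SIA1) and on the plus strand at chr1:76074496-76074795 (ST6GALNAC3).
ST3GAL4: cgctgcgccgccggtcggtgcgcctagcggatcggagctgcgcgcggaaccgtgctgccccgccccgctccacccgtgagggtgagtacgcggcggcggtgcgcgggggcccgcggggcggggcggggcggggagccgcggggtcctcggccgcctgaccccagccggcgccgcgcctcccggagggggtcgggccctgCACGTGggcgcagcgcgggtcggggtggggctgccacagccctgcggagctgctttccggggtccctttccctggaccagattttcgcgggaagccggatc
ST8SIA1: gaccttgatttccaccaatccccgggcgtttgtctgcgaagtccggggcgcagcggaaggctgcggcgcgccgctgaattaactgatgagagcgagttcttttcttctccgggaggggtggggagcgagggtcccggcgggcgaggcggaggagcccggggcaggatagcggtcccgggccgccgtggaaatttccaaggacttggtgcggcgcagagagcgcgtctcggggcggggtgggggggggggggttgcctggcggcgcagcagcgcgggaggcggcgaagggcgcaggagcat
ST6GALNAC3: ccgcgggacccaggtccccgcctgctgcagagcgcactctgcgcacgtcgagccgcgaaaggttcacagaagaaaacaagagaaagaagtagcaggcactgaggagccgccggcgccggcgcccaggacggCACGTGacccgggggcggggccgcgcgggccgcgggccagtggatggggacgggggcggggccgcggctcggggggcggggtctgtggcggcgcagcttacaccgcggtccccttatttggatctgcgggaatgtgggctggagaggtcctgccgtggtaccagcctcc
Because MITF and SOX10 differed between the groups, the E-box letters CACGTG and CATGTG and the SOX letters ACAAAG and ACAATG were searched on both strands, a choice made after the levels of these factors were known. The E-box stood at -51 in ST3GAL4 and at -119 in ST6GALNAC3, counted from the start of the gene. The promoter of FUT8 held 1 SOX match, at -155, and those of ST3GAL6, ST6GAL1, ST8SIA1, ST8SIA4 and FUT1 held no match of either kind. Among 24 members with a promoter in the table, 12.5% held an E-box and 12.5% a SOX match, beside 17.9% and 24.6% of all 27305 promoters. A match describes the letters in this window and is no evidence of binding. The promoter of ST6GALNAC2 was not analysed here.

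Of the 6 ST3GAL enzymes, ST3GAL4 and ST3GAL6 were called higher in WWOX cells. Both cap the galactose of glycoprotein branches and are known for their part in sialyl Lewis ligands. ST3GAL4 had a log2 expression of 8.47, 8.63 and 8.63 in the EV arrays, 8.51, 8.38 and 8.45 in the WFPA arrays and 9.84, 9.96 and 10.07 in the WWOX arrays. The 3 WWOX arrays stood above all others, and the EV and WFPA arrays overlapped. The WWOX level was 2.60-fold that of EV cells (log2 difference 1.38, SE 0.095, limma adjusted p = 2.45e-05) and 2.85-fold that of WFPA cells (1.51, SE 0.095, limma adjusted p = 1.32e-05). A dimmer probe set of ST3GAL4 passed the adjusted p with a smaller difference, 0.66 over the EV and WFPA mean (limma adjusted p = 0.0159). Against EV cells alone it did not pass, at 0.55 (limma adjusted p = 0.0701). With the mean of both probe sets the difference from EV cells was 0.97 and no longer 2-fold.

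ST3GAL6 had a log2 expression of 11.12, 10.97 and 11.12 in EV cells, 11.34, 11.25 and 11.30 in WFPA cells and 12.56, 12.63 and 12.40 in WWOX cells. Again the WWOX arrays lay above the rest, and here the WFPA arrays lay just above the EV arrays, a difference of 0.23 that did not pass the test (limma adjusted p = 0.214). WWOX cells were 2.75-fold above EV cells (1.46, SE 0.093, limma adjusted p = 1.5e-05) and 2.35-fold above WFPA cells (1.23, SE 0.093, limma adjusted p = 3.96e-05). Of its other 3 probe sets, 1 was also called, at 1.58 over the EV and WFPA mean (limma adjusted p = 5.09e-06), and the remaining ones were 0.51 and 0.53 above it, past the adjusted p but under 2-fold. Against EV cells alone these 2 did not pass, at 0.54 and 0.21 (limma adjusted p = 0.0616 and 0.29), and for the latter WFPA minus EV was -0.64 (limma adjusted p = 0.0109). With the mean of all 4, the difference from EV cells was 0.96, also under 2-fold.

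Smaller differences were seen in a pair of further ST3GAL genes. ST3GAL5 makes the ganglioside GM3, the precursor of GD3. Its level was 11.67, 11.72 and 11.68 in EV cells, 11.69, 11.70 and 11.59 in WFPA cells and 12.47, 12.37 and 12.08 in WWOX cells. All WWOX arrays were the highest, with a spread wider than that of the other groups. The difference from EV cells was 0.62 (SE 0.109, limma adjusted p = 0.00634) and that from WFPA cells 0.65 (SE 0.109, limma adjusted p = 0.0039), both under 2-fold.

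ST3GAL3, which acts on glycoprotein branches, was highest in WFPA cells. Its arrays read 8.57, 8.48 and 8.50 in EV cells, 9.53, 9.28 and 9.47 in WFPA cells and 8.84, 8.79 and 8.72 in WWOX cells, and no group overlapped another. WFPA cells were 0.91 above EV cells (SE 0.092, limma adjusted p = 0.000576) and 0.65 above WWOX cells (SE 0.092, limma adjusted p = 0.00163), while WWOX and EV cells differed by 0.27 (limma adjusted p = 0.101). A second probe set had nearly the same values, 0.92 for WFPA minus EV and -0.75 for WWOX minus WFPA, and 5 others passed no test. ST3GAL1 and ST3GAL2, which act mainly on O-glycans and gangliosides, passed no adjusted p. The smallest adjusted p among such members was that of ST3GAL2, 0.0559 against the mean of EV and WFPA cells (limma), with levels of 9.90, 9.89 and 10.17.

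ST6GAL1 is the main enzyme that places sialic acid on the galactose of N-glycans in the linkage named for position 6. Its level was 7.98, 8.02 and 7.94 in EV cells, 8.55, 8.59 and 8.58 in WFPA cells and 9.78, 9.97 and 9.60 in WWOX cells. The groups did not overlap and rose in the order EV, WFPA, WWOX. WWOX cells were 3.49-fold above EV cells (1.81, SE 0.103, limma adjusted p = 7.57e-06) and 2.31-fold above WFPA cells (1.21, SE 0.103, limma adjusted p = 8.72e-05), and WFPA cells were 0.60 above EV cells (SE 0.103, limma adjusted p = 0.00976). The other 2 probe sets of ST6GAL1 had group means between 2.86 and 4.89 and passed no test, and with the mean of all 3 probe sets the difference from EV cells was 0.71 and the call was lost. ST6GAL2 lay under the lower quartile in every group.

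Among the 6 ST6GALNAC enzymes, 1 was called higher and 1 lower. ST6GALNAC2 adds sialic acid to the N-acetylgalactosamine of O-glycans. It read 8.60, 8.30 and 8.45 in EV cells, 8.77, 8.57 and 8.62 in WFPA cells and 11.45, 11.51 and 11.66 in WWOX cells. The EV and WFPA arrays overlapped, and every WWOX array was far above them. The WWOX level was 8.52-fold that of EV cells (3.09, SE 0.109, limma adjusted p = 4.46e-07) and 7.40-fold that of WFPA cells (2.89, SE 0.109, limma adjusted p = 8.25e-07), and WFPA and EV cells differed by 0.20 (limma adjusted p = 0.37). Its call was kept in all 22 alternatives in each of these 2 comparisons. Not all of these could have changed it. Only 1 probe set stands for this gene, so the alternatives for the probe set kept the same difference. Dropping the fold limit cannot lose a call.

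ST6GALNAC3, which adds a further sialic acid to sialylated O-glycans and gangliosides, ran the other way. Its level was 10.20, 10.14 and 10.28 in EV cells, 8.30, 8.67 and 8.33 in WFPA cells and 7.16, 7.62 and 7.59 in WWOX cells. The groups fell in the order EV, WFPA, WWOX without overlap. Compared with EV cells, the level was 6.73-fold lower in WWOX cells (-2.75, SE 0.148, limma adjusted p = 5.29e-06) and 3.41-fold lower in WFPA cells (-1.77, SE 0.148, limma adjusted p = 0.000216). The step from WFPA to WWOX cells was -0.98 (SE 0.148, limma adjusted p = 0.00223), just under 2-fold. It passed 2-fold without WFPA replicate 1 (-1.05), WFPA replicate 3 (-1.03), WWOX replicate 2 (-1.06) or WWOX replicate 3 (-1.05). The leukocyte marker PTPRC fell in the same order, with mean levels of 9.88, 7.67 and 5.48, while the other 3 leukocyte markers were not called in any comparison. The part of PTPRC in this pattern was not tested.

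The remaining ST6GALNAC genes passed no adjusted p on the probe set used. ST6GALNAC4 and ST6GALNAC6, which act on O-glycans and gangliosides, had mean levels of 8.22, 8.10 and 8.16 and of 8.71, 8.51 and 8.47 in EV, WFPA and WWOX cells. ST6GALNAC1 was under the lower quartile throughout. A second, dim probe set of ST6GALNAC5 was higher in WFPA cells, with means of 2.69, 3.56 and 2.74, a difference of 0.87 from EV cells (limma adjusted p = 0.0254) at levels under the lower quartile.

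**Figure D2:**
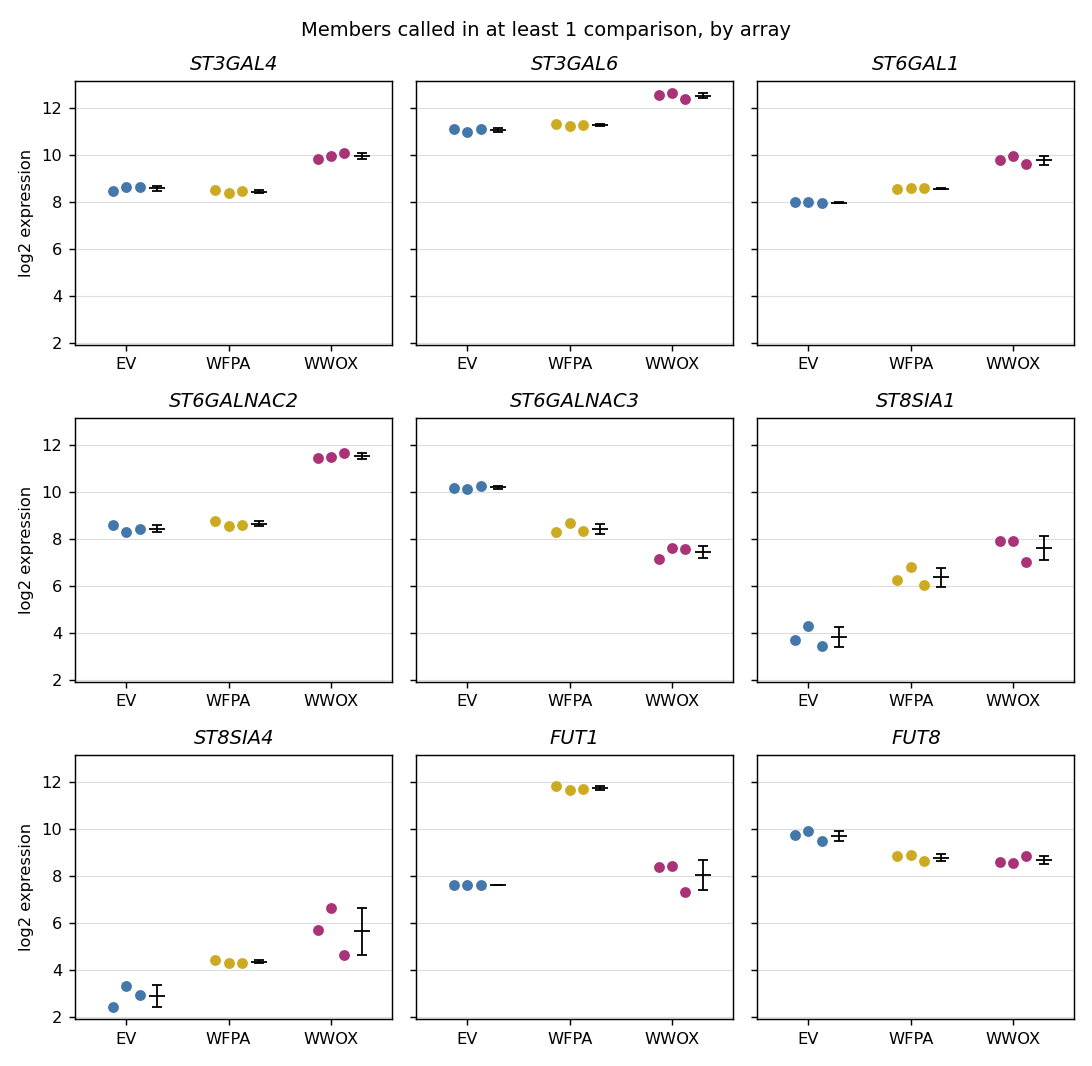
Log2 expression on each array for the 9 members called in at least 1 comparison, by group, with the mean and SD of 3 arrays beside the points. ST3GAL4, ST3GAL6, ST6GAL1 and ST6GALNAC2 stand apart in the WWOX arrays, ST6GALNAC3 and ST8SIA1 change in steps from EV through WFPA to WWOX cells, and FUT1 is high in the WFPA arrays, at 11.68 to 11.86.

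The ST8SIA enzymes extend sialic acid with sialic acid. ST8SIA1, the GD3 synthase, read 3.72, 4.31 and 3.45 in EV cells, 6.25, 6.83 and 6.05 in WFPA cells and 7.90, 7.93 and 7.03 in WWOX cells. The groups did not overlap, and the mean of EV cells lay under the lower quartile. WWOX cells were 13.8-fold above EV cells (3.79, SE 0.311, limma adjusted p = 7.64e-05), WFPA cells were 5.84-fold above EV cells (2.55, SE 0.311, limma adjusted p = 0.00177), and WWOX cells were 2.36-fold above WFPA cells (1.24, SE 0.311, limma adjusted p = 0.0262).

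Of all calls on members, the step from WFPA to WWOX cells in ST8SIA1 was kept in the smallest share of alternatives, 14 of 21. It was lost without WFPA replicate 1 (1.18, limma adjusted p = 0.0832), WFPA replicate 3 (1.08, 0.0956), WWOX replicate 1 (1.10, 0.0638) or WWOX replicate 2 (1.09, 0.0816), and in a plain 1-way model (adjusted p = 0.0849). The second probe set of ST8SIA1 had means of 4.40, 5.73 and 7.63 and was called in each comparison, with 3.24 for WWOX minus EV (limma adjusted p = 2.32e-05), 1.91 for WWOX minus WFPA (limma adjusted p = 0.000525) and 1.33 for WFPA minus EV (limma adjusted p = 0.00806). B4GALNT1, which converts GD3 to GD2, had mean levels of 4.19, 4.27 and 4.12, around the lower quartile, and was not called.

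ST8SIA4 is a polysialyltransferase. Its level was 2.43, 3.34 and 2.94 in EV cells, 4.42, 4.31 and 4.31 in WFPA cells and 5.71, 6.63 and 4.64 in WWOX cells. The groups did not overlap, but the WWOX arrays spread widely, with WWOX replicate 3 close to the WFPA arrays, and the EV mean lay under the lower quartile. The difference from EV cells was 2.76 (SE 0.428, limma adjusted p = 0.00342). Neither WWOX minus WFPA (1.31, SE 0.428, limma adjusted p = 0.0694) nor WFPA minus EV (1.45, SE 0.428, limma adjusted p = 0.0881) passed the test. The first of the 2 was called without WWOX replicate 3 (1.82, limma adjusted p = 0.00683), and the second without WWOX replicate 2 (limma adjusted p = 0.0277) or WWOX replicate 3 (limma adjusted p = 0.017). The groups share 1 estimate of the spread, so the scatter of the WWOX arrays also entered the test of WFPA minus EV. The SD was 0.454 in EV cells, 0.0608 in WFPA cells and 0.997 in WWOX cells.

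Of the 4 other ST8SIA4 probe sets, 2 were called in WWOX cells against both EV and WFPA cells, at 1.32 and 1.28 above WFPA cells (limma adjusted p = 0.00237 and 0.0244), and 2 passed no test. The 2 called ones had means of 3.02 and 2.86 in EV cells, 3.48 and 3.48 in WFPA cells and 4.80 and 4.76 in WWOX cells. Their EV and WFPA means lay under the lower quartile, so the size of these differences is uncertain. The 2 that passed no test were brighter in EV cells than the probe set used (means 3.705 and 2.914 beside 2.902). The choice by the mean of all arrays thus leaned on its WFPA and WWOX levels. Between WWOX and EV cells these 2 differed by 0.13 and 0.37. ST8SIA2, the other polysialyltransferase, had mean levels of 4.95, 4.88 and 4.90 and passed none. The same held for ST8SIA3 and ST8SIA5, with differences from EV cells of 0.21 and 0.14, although a dim probe set of ST8SIA5 was 0.34 higher in WWOX than in EV cells (limma adjusted p = 0.0387).

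**Figure D3:**
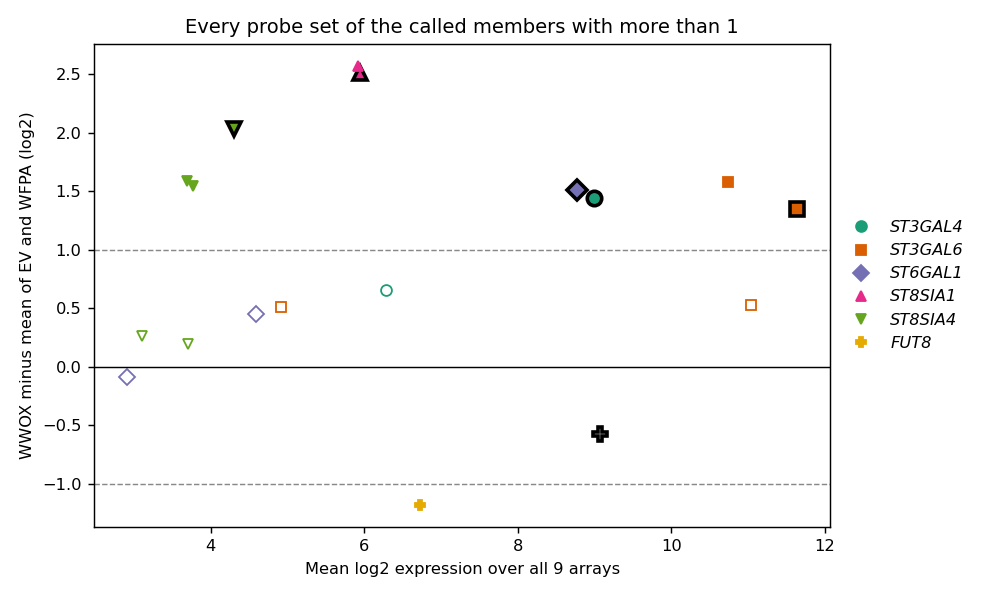
Every probe set of the 6 called members that have more than 1, plotted as WWOX minus the mean of EV and WFPA cells against the mean level over 9 arrays, both in log2 units. A black outline marks the probe set used for the gene, filled symbols passed the call, and dashed lines mark 2-fold. Both ST8SIA1 probe sets lie near 2.5, and the probe sets of ST6GAL1 and ST8SIA4 spread from near 0 to the called values.

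FUT1 makes the H antigen, the fucosylated precursor of the A and B blood group structures. It read 7.63, 7.64 and 7.64 in EV cells, 11.86, 11.68 and 11.74 in WFPA cells and 8.38, 8.45 and 7.33 in WWOX cells. The WFPA arrays stood far above the other 6, and WWOX replicate 3 lay below the EV arrays while WWOX replicates 1 and 2 lay above them. WFPA cells were 17.4-fold above EV cells (4.12, SE 0.253, limma adjusted p = 3.49e-05) and 13.1-fold above WWOX cells (WWOX minus WFPA -3.71, SE 0.253, limma adjusted p = 2.17e-05). WWOX and EV cells differed by 0.42 (SE 0.253, limma adjusted p = 0.354), so the lower call against the mean of EV and WFPA cells rested on the WFPA level. The epithelial marker CDH1 was also highest in WFPA cells, with mean levels of 4.67, 7.78 and 4.54. It was the only one of 6 epithelial markers called between WFPA and EV cells, and its part in the FUT1 pattern was not tested.

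FUT8 adds the core fucose of N-glycans and is the only enzyme known to do so. It read 9.76, 9.93 and 9.49 in EV cells, 8.85, 8.90 and 8.63 in WFPA cells and 8.61, 8.58 and 8.87 in WWOX cells. The EV arrays were the highest, and the WFPA and WWOX arrays overlapped. FUT8 was 2.05-fold lower in WWOX than in EV cells (-1.04, SE 0.14, limma adjusted p = 0.00156), and WFPA cells differed from EV cells by a similar -0.93 (SE 0.14, limma adjusted p = 0.00494), just under 2-fold. The first fell below 2-fold without EV replicate 2 (-0.94) or WWOX replicate 2 (-0.99) and after quantile normalization (-0.99), and the second passed 2-fold without EV replicate 3 (-1.05). The other probe set of FUT8 had means of 7.54, 6.71 and 5.95 and was lower in WWOX than in EV cells by -1.59 (limma adjusted p = 0.000157). In that probe set the WWOX arrays also lay below all WFPA arrays, by -0.77 on the means (limma adjusted p = 0.00747), under 2-fold.

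The 9 other FUT genes passed no adjusted p in any comparison. FUT2, which makes the H antigen in secretory epithelia, had mean levels of 6.12, 6.09 and 6.16. The fucosyltransferases of the Lewis structures FUT3, FUT4, FUT5, FUT6, FUT7 and FUT9 had differences of -0.22 to 0.27 for WWOX minus WFPA and of -0.08 to 0.17 for WWOX minus EV, and FUT9 was under the lower quartile in all groups. FUT7, which completes sialyl Lewis x in leukocytes, had means of 6.79, 6.68 and 6.80. FUT10 and FUT11 now carry the RefSeq symbols POFUT3 and POFUT4. They differed from WFPA cells by 0.29 and -0.21.

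Of the protein O-fucosyltransferases, POFUT2, which acts on thrombospondin repeats, was lower in EV cells. It read 10.37, 10.28 and 10.03 in EV cells, 10.73, 10.82 and 10.88 in WFPA cells and 10.80, 10.90 and 11.05 in WWOX cells. The EV arrays lay below all others, and the WFPA and WWOX arrays overlapped. The difference from EV cells was 0.69 in WWOX cells (SE 0.114, limma adjusted p = 0.00479) and 0.58 in WFPA cells (SE 0.114, limma adjusted p = 0.0171), both under 2-fold, and its 3 other probe sets passed no test. POFUT1, which fucosylates the EGF repeats of Notch, had means of 10.47, 10.62 and 10.65 and passed none, although its other probe set was 0.30 higher in WWOX than in WFPA cells (limma adjusted p = 0.0316).

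Over all 32 members, 9 were called in at least 1 of the 4 comparisons, beside 6.64% of all genes, while 3 passed the adjusted p but not 2-fold, and 20 passed no adjusted p on the probe set used. Among these 20, the log2 differences ran from -0.35 to 0.31 for WWOX minus EV, from -0.22 to 0.29 for WWOX minus WFPA and from -0.24 to 0.42 for WFPA minus EV. ST6GAL2, ST6GALNAC1 and FUT9 lay under the lower quartile in all groups, where a difference is hard to see. ST6GALNAC5 and ST8SIA3 lay under it in 2 groups each.

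The genes around these enzymes were read from lists chosen with earlier results of these data known. Over all genes, 6.64% were called in at least 1 of the 4 comparisons, so lists this short can hold few calls or none at that share. None of 5 genes of sialic acid supply (GNE, NANS, NANP, CMAS and SLC35A1) and none of 5 genes of GDP-fucose supply was called in any comparison. NANP, the phosphatase of the last step before free sialic acid, was 0.82 lower in WWOX than in EV cells (limma adjusted p = 0.00119), under 2-fold. Among 8 genes that remove or modify sialic acid or fucose, none was called. NEU1, the lysosomal sialidase, and the fucosidases FUCA1 and FUCA2 differed by -0.36, -0.37 and -0.34 from the mean of EV and WFPA cells, and CASD1, which acetylates sialic acid, by 0.66 (limma adjusted p = 0.00844, 0.029, 0.00907 and 0.0264). Against EV cells alone, NEU1 and FUCA1 did not pass (-0.231 and -0.235, limma adjusted p = 0.111 and 0.22). CASD1 did not pass against WFPA cells (0.44, limma adjusted p = 0.157).

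Of the enzymes that build the acceptor chains, 8 glycolipid genes held no call. B4GALT6, a lactosylceramide synthase, was 0.73 over the EV and WFPA mean (limma adjusted p = 0.00639). Among 16 genes of N-glycan branches and O-glycan cores, only GCNT1, which branches O-glycan cores, was called. Its mean level was 8.49 in EV cells, 7.45 with WFPA and 7.20 with WWOX, a difference from EV cells of -1.29 in WWOX cells (limma adjusted p = 0.000266) and of -1.04 in WFPA cells (limma adjusted p = 0.00189). Against the EV and WFPA mean, 5 of the 16 passed the adjusted p under 2-fold, beside 3231 of all 19775 genes. Besides GCNT1 these were MGAT2 (-0.55), B4GALT1 (-0.28), MGAT4B (0.46) and B4GALT4 (0.53), with limma adjusted p = 0.00096, 0.0225, 0.0129 and 0.00158. None of 4 genes that extend O-fucose was called, and LFNG, the fringe enzyme with the largest difference among them, was at -0.85 against the mean of EV and WFPA cells (limma adjusted p = 0.00778).

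Polysialic acid is carried by few proteins, and 2 of 4 listed carriers were called higher in WWOX cells against EV cells (background 2.11%) and against WFPA cells (background 2.01%). This list was also chosen with earlier results of these data known, so the count is a description and not a test. NRP2, a receptor for semaphorins and vascular growth factors, had mean levels of 6.33, 6.60 and 8.25, with 1.93 for WWOX minus EV (limma adjusted p = 2.95e-05) and 1.65 for WWOX minus WFPA (limma adjusted p = 7.04e-05). CADM1, a cell adhesion molecule, had mean levels of 10.37, 10.76 and 11.87, with 1.50 and 1.12 (limma adjusted p = 0.000103 and 0.000534). NCAM1, the best known carrier, differed by 0.13 from the mean of EV and WFPA cells and was not called. CCR7 lay under the lower quartile in all groups and was not called either.

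**Figure D4:**
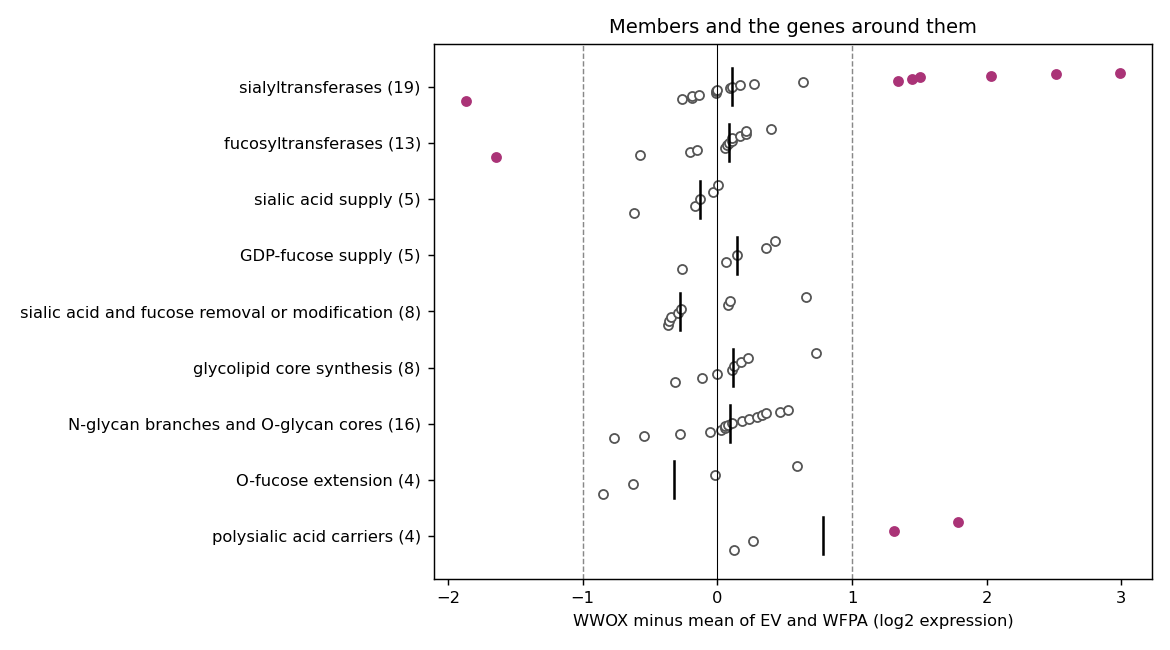
Log2 difference of WWOX minus the mean of EV and WFPA cells for the members, split into sialyltransferases and fucosyltransferases, and for the 7 lists of genes around them, with the number measured in brackets. Each point is 1 gene, filled points were called, bars mark the median of the list and dashed lines 2-fold. Beside the members, filled points occur among the polysialic acid carriers, for NRP2 and CADM1.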

How the data were processed

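Total RNA of MDA-MB435S cells was hybridised to 9 1-colour Affymetrix arrays, and calibration and normalization were run by the authors in Partek Genomics Suite 6.5. The deposited table gives 1 log2 intensity for each of 54675 probe sets and array, on a common scale. The background and normalization method is not given in the sources used here. No further normalization was applied. After 62 array controls were left out, 41091 of 54613 probe sets named 1 gene, 1801 several and 11721 none, by the platform annotation with symbols updated to RefSeq.

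In limma 3.58.1 (R 4.3.3), group means were fitted to all probe sets over the 9 arrays with moderated variances, and p-values were adjusted by Benjamini-Hochberg over 54613 probe sets. The script was tested on simulated data. Arrays have no counts, and 3 a group limit the precision. The members, lists and motifs were chosen with earlier results of these data known. Named with full values were members called in any comparison and at most 6 past the adjusted p alone, together with called genes of the lists, WWOX and the other probe sets of called members. Alternatives covered the test, adjustment, fold limit, low-level filter, normalization, replicate number, each array and the probe set for a gene. The methods name a 4-fold limit, which was tried as an alternative.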

Additional observations from a re-analysis of the deposited data

How the results depend on the processing

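No member turned its direction among the called differences, and ST6GALNAC2 kept its call against EV and against WFPA cells under all 22 alternatives, some of which could not change it. Against the mean of EV and WFPA cells, 8 members were called, and 5 with a Bonferroni adjustment, which lost FUT1, ST8SIA1 and ST8SIA4. At a 4-fold limit 3 were called, namely ST6GALNAC2, ST8SIA1 and ST8SIA4. Against EV cells, 8 were called, 5 with the mean of all probe sets of a gene, which lost ST3GAL4, ST3GAL6 and ST6GAL1, and 4 at 4-fold. Against WFPA cells, 6 were called and 2 at 4-fold. Between WFPA and EV cells, 3 were called and 7 with no fold limit. The 3 called stood beside 304 genes called higher and 137 lower among all 19775. The 4 past the adjusted p but under 2-fold stood beside 1263 such genes. With 1 array left out, the calls ran from 8 to 8, from 7 to 8, from 5 to 8 and from 3 to 4. These ranges follow the order of the comparisons above. FUT8 was lost against EV cells without EV replicate 2 or WWOX replicate 2. Against WFPA cells, ST8SIA1 was lost without WWOX replicate 1, leaving 5, and ST6GALNAC3 and ST8SIA4 were gained without WWOX replicate 3, giving 8. Between WFPA and EV cells, FUT8 was gained without EV replicate 3 and ST8SIA4 without WWOX replicate 2 or 3. The filter at the median probe set left ST8SIA1 and ST8SIA4 untested, since their levels were low. Replicate numbers did not pair the arrays, since the deviations of same-numbered arrays correlated between -0.052 and 0.035, and with a replicate block the counts were 8, 8, 6 and 3. Shares of called genes over all genes were computed for the main setting only, so counts under the alternatives describe these members alone. Levels under the lower quartile of the arrays limit what can be seen for ST6GAL2, ST6GALNAC1 and FUT9.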
